A study of Mus musculus with 24 samples.

Results

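The genes described here are 32 enzymes, transporters and accessory proteins of fatty acid oxidation and ketone body formation, followed in the livers of mice on 5 diets. They were chosen by symbol, as a fixed list of members of the mitochondrial and peroxisomal pathways, out of 34436 gene symbols in the deposited table of read counts. All 32 were found, and all 32 passed the filter on low counts, which left 12595 genes to test. For the comparison of compartments, 17 members were counted as mitochondrial and 10 as peroxisomal. The other 5 (Acsl1, Slc27a2, Acad11, Ech1 and Pdk4) either work in more than 1 compartment or are not enzymes of beta-oxidation.

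The mice were wild type C57BL/6, and whole liver was taken after 8 weeks of diet begun at 8 to 10 weeks of age. Normal chow, NC, has 4 libraries here. Sucrose in high amount, HS, has 5, and the same base with 2% cholesterol, HS_Chol, has 3 of its 4 labelled samples. Cholic acid, CA, has 4, and its combination with 2% cholesterol, Chol_CA, also 4. Cholic acid is a primary bile acid, and its percentage in the diet is not given in the sources used here, nor is the sex of the mice. The sixth labelled diet, high sucrose with cholesterol and cholic acid, was not analysed here. One sample titled HS carries a diet label of normal chow, and its column cannot be told from the other HS columns. Nothing in the labels ties a library to 1 animal beyond its number, so p-values measure the spread between these samples. Libraries are named by their number in the table, which starts at 0.

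Liver burns fatty acids both in mitochondria and in peroxisomes. Mitochondria take up long chains through the carnitine shuttle and shorten them by repeated rounds of dehydrogenation, hydration, a further dehydrogenation and thiolytic cleavage, and the acetyl-CoA feeds the citric acid cycle or is turned into ketone bodies that liver exports during fasting. Peroxisomes shorten very long, branched and dicarboxylic chains with their own enzymes, and also trim the side chain of cholesterol in the making of bile acids. Many genes of both routes are targets of the nuclear receptor PPARalpha, which is activated by fatty acids.

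Depth lay between 6110484 and 10244277 reads per library (median 7639777). Values are given as CPM, a gene's reads per 1000000 of the TMM-scaled library, and differences between diets as log2 fold changes from edgeR's quasi-likelihood fit. Their standard errors were derived from that fit's test, as the absolute log2 fold change divided by the square root of the F statistic. Calls were made where the p, adjusted by Benjamini and Hochberg's method over all 12595 genes, was under 0.05. The 12 hepatocyte markers summed to between 74276 and 142754 CPM in every library with their highest range in NC (141147 to 142754) and their lowest in Chol_CA (74276 to 92950). The 14 macrophage markers summed to 115.6 to 176.8 CPM in NC and 1106 to 3504 CPM in Chol_CA, with HS (150 to 324.6), HS_Chol (228.4 to 552.6) and CA (268.3 to 731.1) between. In bulk liver, fewer hepatocytes and less RNA per hepatocyte cannot be told apart. Libraries differed in RNA-related properties too. In 8 of the 20 (NC_3, HS_0 to HS_2, HS_Chol_0, Chol_CA_0, Chol_CA_1 and CA_0) counts fell with transcript length relative to the other libraries, and the 3 HS_Chol libraries held 673 to 900.2 reads of light-strand mitochondrial tRNA per 1000000 reads of heavy-strand mRNA, against at most 83.4 elsewhere.

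On the cholesterol and cholic acid diet, transcripts of both routes were lower than on chow. Of the 32 members 29 fell and none rose, where 9.35% of all genes tested were called lower and 15.0% higher. All 32 fold changes were negative, with a median of -0.94 on the log2 scale against -0.00 for all genes tested. Cholic acid alone gave 5 falls and 2 rises, where 4.61% of all genes were called lower and 5.22% higher. High sucrose with cholesterol gave 1 rise and 1 fall, where the shares were 1.71% higher and 0.564% lower. High sucrose alone gave no call by edgeR or DESeq2.

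**Figure D1:**
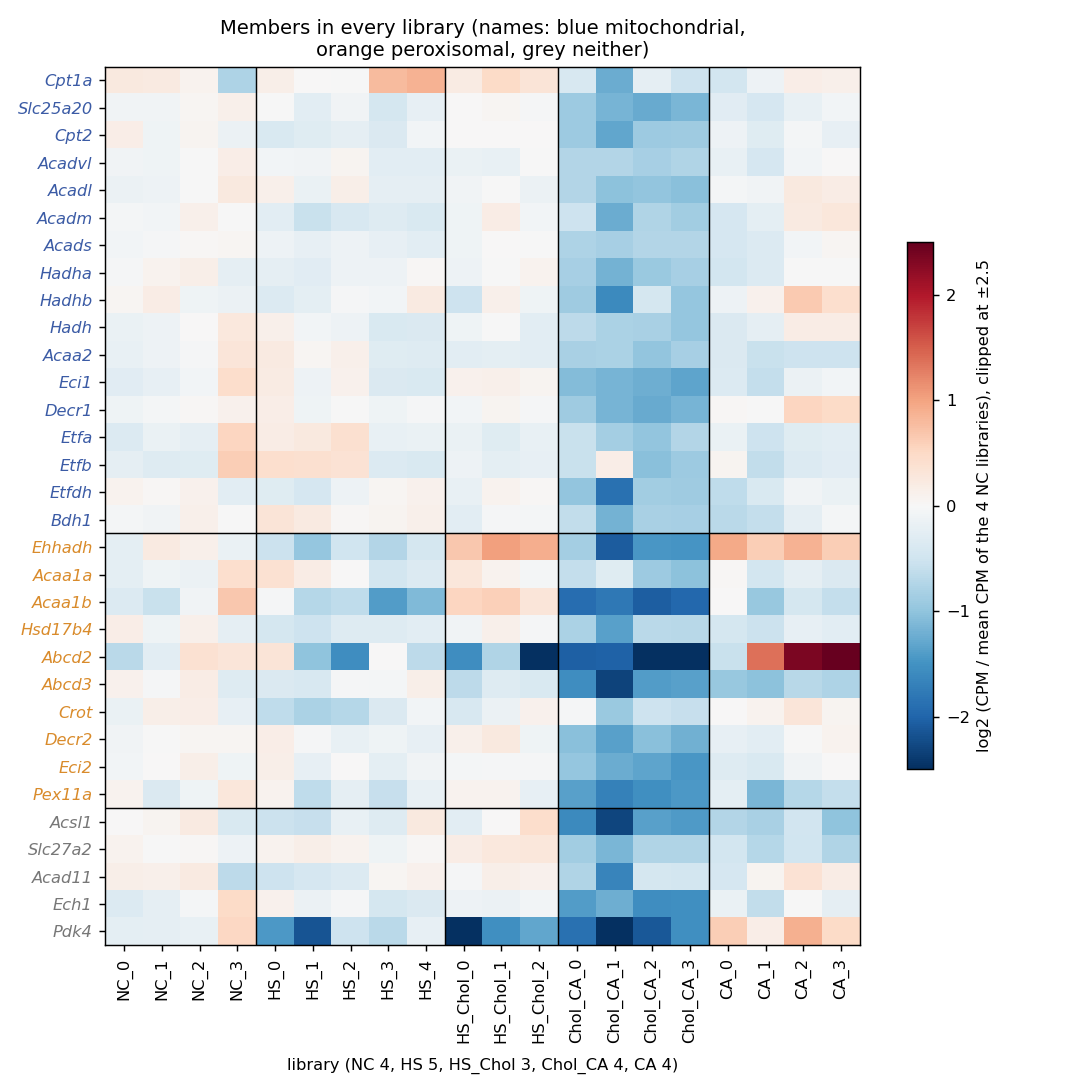
Level of each of the 32 members (rows, names coloured by compartment) in each of the 20 libraries (columns, grouped by diet), as the log2 ratio of its CPM to its mean CPM in the NC libraries. The 4 Chol_CA libraries are below the NC mean for nearly all members, while HS_Chol and CA differ from NC in single rows such as Ehhadh, Abcd2 and Pdk4.

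The first step of the pathway is the joining of fatty acids to coenzyme A. Acsl1, the main long-chain acyl-CoA synthetase of liver, read 1678, 1734, 1951 and 1275 CPM in the 4 NC libraries and 548, 338, 646 and 621 CPM in the 4 Chol_CA libraries. In CA it read 995, 940, 1191 and 824 CPM. Every CA library was thus below every NC library and above every Chol_CA library. The HS libraries read 1145, 1107, 1463, 1320 and 1968 CPM and the HS_Chol libraries 1386, 1669 and 2251 CPM, which overlap NC. Acsl1 fell in Chol_CA by 1.63 ± 0.22 (adjusted p = 1.99e-05) and in CA by 0.75 ± 0.22 (adjusted p = 0.0328) on the log2 scale against NC. The call in CA was lost in 7 of 19 alternative analyses, among them 6 that each left out 1 library (NC_0, NC_1, NC_2, CA_0, CA_1 or CA_3; adjusted p between 0.0554 and 0.105). Slc27a2, a very-long-chain acyl-CoA synthetase of peroxisomes and the endoplasmic reticulum that also activates bile acid intermediates, ran from 1242 to 1430 CPM in NC, from 797 to 983 CPM in CA and from 610 to 799 CPM in Chol_CA. It fell in both, by 0.60 ± 0.11 in CA (adjusted p = 0.00195) and by 0.87 ± 0.12 in Chol_CA (adjusted p = 1.35e-05). Its difference between Chol_CA and CA, -0.27 on the log2 scale, did not pass the test (adjusted p = 0.0989).

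Long chains then enter mitochondria through the carnitine shuttle, which Cpt1a, the malonyl-CoA-sensitive carnitine palmitoyltransferase of the outer membrane, opens. Cpt1a (chr19:3322334-3385733, plus strand, GRCm38) read 488, 483, 439.6 and 240.3 CPM in NC. In Chol_CA it read 311, 174, 356 and 290 CPM, which overlaps NC through NC_3 alone. It read 457, 416, 409.6, 715 and 752 CPM in HS, 473, 577 and 518 CPM in HS_Chol, and 299, 377, 464 and 449 CPM in CA. In the fit over all libraries, Cpt1a was not called against NC in any diet. Its log2 fold change was -0.55 ± 0.25 in Chol_CA (adjusted p = 0.132), and without NC_3 that difference passed the test (adjusted p = 0.0284). In HS the value was 0.41 ± 0.24 (adjusted p = 0.55), with HS_3 and HS_4 as the high libraries. NC_3 and HS_0 to HS_2 are among the libraries whose counts fell with transcript length. An edgeR fit without such libraries kept only HS_3 and HS_4, the high ones, in HS, and NC without NC_3, its low one. In Chol_CA it kept only Chol_CA_2 and Chol_CA_3. Cpt1a was then called higher in HS (0.64, adjusted p = 0.0132) and lower in Chol_CA (-0.56, adjusted p = 0.00415). Since the low libraries of HS and NC were left out, these calls cannot decide whether Cpt1a differs from NC. The other parts of the shuttle did fall in Chol_CA. Slc25a20, the carnitine-acylcarnitine carrier of the inner membrane, fell by 1.11 ± 0.12 (adjusted p = 1.69e-06), and Cpt2, the transferase that re-forms acyl-CoA in the matrix, by 0.99 ± 0.12 (adjusted p = 4.8e-06). Neither was called in the other 3 diets against NC.

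The acyl-CoA dehydrogenases, which carry out the first oxidation at different chain lengths, moved together. All 4 fell in Chol_CA, where 9.35% of all genes tested were called lower, and none was called in HS, HS_Chol or CA. Their Chol_CA libraries did not overlap those of NC, but the share of all genes without overlap was not counted. Acadl, the long-chain dehydrogenase, read 224, 229, 249 and 296 CPM in NC and 149, 123, 126 and 121 CPM in Chol_CA, with 243, 235, 297 and 284 CPM in CA. Its HS libraries read 274, 223, 274, 213 and 214 CPM and its HS_Chol libraries 235, 249 and 225 CPM. Only the Chol_CA libraries stood apart. The fall was 0.94 ± 0.13 (adjusted p = 2.26e-05). Acadm, the medium-chain dehydrogenase (chr3:153922357-153944632, minus strand), read 277, 276, 314 and 284 CPM in NC and 200, 122, 171 and 157 CPM in Chol_CA, a fall of 0.83 ± 0.16 (adjusted p = 0.000709). Its 5 HS libraries (239.7, 196, 218, 229 and 222 CPM) also lay below all NC libraries, but the log2 difference of -0.38 ± 0.15 did not pass the test (adjusted p = 0.348). In HS_Chol it read 266, 329 and 274 CPM, and in CA 214, 242, 338 and 351 CPM. Acadvl, for very long chains, and Acads, for short chains, each fell by 0.76 in Chol_CA, with standard errors of 0.12 and 0.11 and adjusted p of 5.17e-05 and 2.75e-05.

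Hadha and Hadhb encode the alpha and beta chains of the trifunctional protein, which hydrates, oxidises and cleaves long chains at the inner membrane. Hadha (chr5:30118304-30155162, minus strand) read 477, 516, 536 and 414 CPM in NC, 417, 400, 446, 443 and 497 CPM in HS, and 442, 479 and 518 CPM in HS_Chol. In Chol_CA it read 274, 215, 255 and 272 CPM, and in CA 354, 383, 484 and 481 CPM. The Chol_CA libraries all lay below every library of the other diets, and the fall was 0.94 ± 0.13 (adjusted p = 2.41e-05). Hadhb lies head to head with it on the plus strand, and its counts were far lower, between 6.82 and 8.59 CPM in NC and between 2.52 and 5.57 CPM in Chol_CA. It fell by 0.90 ± 0.23 (adjusted p = 0.00556). Hadh, the dehydrogenase for medium and short chains, fell by 0.80 ± 0.15 (adjusted p = 0.00046), and Acaa2, a mitochondrial thiolase, by 0.85 ± 0.14 (adjusted p = 9.86e-05). Acaa2 was the only mitochondrial member called in CA, where it read 558, 484, 502 and 501 CPM against 626, 650, 702 and 877 CPM in NC, a fall of 0.48 ± 0.14 (adjusted p = 0.0275). That call held in 10 of 20 alternatives.

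Unsaturated chains need auxiliary enzymes. Eci1, an enoyl-CoA isomerase, and Decr1, the dienoyl-CoA reductase, fell in Chol_CA by 1.19 ± 0.17 (adjusted p = 2.51e-05) and 1.11 ± 0.13 (adjusted p = 4.68e-06). Decr1 ran from 173 to 202 CPM in NC and from 77.3 to 100.3 CPM in Chol_CA, while CA_2 and CA_3 were above all NC libraries at 269 and 258 CPM. Electrons from the dehydrogenases pass through the flavoprotein of Etfa and Etfb to Etfdh, which hands them to ubiquinone. Etfdh fell by 1.10 ± 0.19 (adjusted p = 0.000201) and Etfa by 0.77 ± 0.18 (adjusted p = 0.00277). Etfb did not pass the test, at -0.51 ± 0.27 (adjusted p = 0.188), with NC_3 at 295 CPM against 155 to 164 CPM in the other NC libraries and Chol_CA_1 at 215 CPM against 93.4 to 131 CPM in the other Chol_CA libraries. Without Chol_CA_1 it was called lower (adjusted p = 0.0252). Of the 50-base windows in the longest Etfb transcript, 67.30% also occur in the gene model Gm45233, so its count is uncertain.

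Bdh1, the mitochondrial dehydrogenase that interconverts acetoacetate and beta-hydroxybutyrate, is the only enzyme specific to ketone bodies among the members. It read 287, 278, 323 and 296 CPM in NC, 371, 344, 301, 311 and 322 CPM in HS, and 247, 288 and 285 CPM in HS_Chol. In Chol_CA it read 193, 129.6, 169 and 167 CPM, below every library of those 3 diets. In CA it read 184, 197, 252 and 285 CPM. Bdh1 fell in Chol_CA by 0.84 ± 0.14 (adjusted p = 0.000191), and its log2 difference in CA was -0.37 (adjusted p = 0.127). Of 7 ketone body genes outside the members, 3 fell and 1 rose in Chol_CA. Acat1, the mitochondrial acetoacetyl-CoA thiolase, fell by 1.25 ± 0.15 (adjusted p = 5.03e-06). The gene that rose was Oxct1, the enzyme by which tissues other than hepatocytes use ketone bodies, which rose by 2.43 ± 0.31 on the log2 scale, from 3.31 ± 0.20 (SD, n = 4) to 18.02 ± 7.14 CPM (SD, n = 4). Macrophage and other non-parenchymal markers rose in the same libraries, and their part in the Oxct1 result was not tested.

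The peroxisomal members had a wider range of fold changes in Chol_CA than the mitochondrial members. In Chol_CA 9 of 10 fell, with a median log2 fold change of -1.32 and a range from -2.47 to -0.47. For the 17 mitochondrial members 15 fell, with a median of -0.85 and a range from -1.19 to -0.51. This contrast depends on which genes are members, since lists of related genes outside them had the other order. There 18 genes listed under peroxisomal oxidation had a median of -0.52 (range -1.74 to 0.26). The 11 tested genes of mitochondrial oxidation had one of -0.63 (range -2.80 to 0.34). On cholic acid alone 2 of 10 rose and 2 fell, with 0 and 1 of 17 mitochondrial members, where 5.22% and 4.61% of all genes were called. With cholesterol added to high sucrose 2 of 10 rose and none of 17, where 1.60% of all genes were called higher. The classes were not tested against each other, and the calls of Abcd2, Pex11a and Acaa2 on cholic acid held in 11, 10 and 10 of 20 alternatives.

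**Figure D2:**
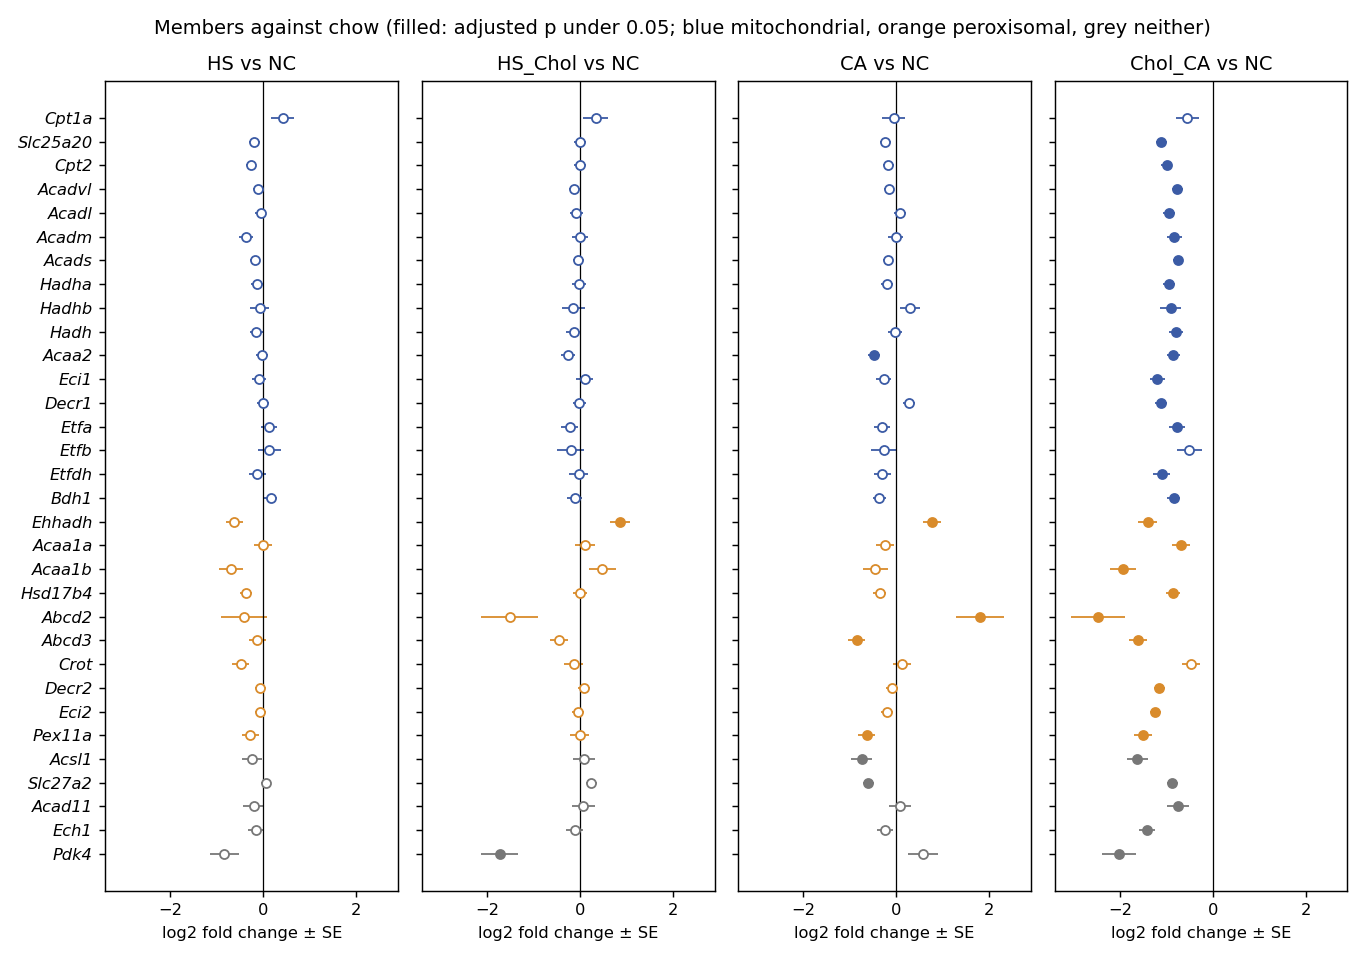
Log2 fold change against NC of each member in HS, HS_Chol, Chol_CA and CA, with its derived standard error, filled where the adjusted p was under 0.05. In Chol_CA 29 of 32 points are filled, all below 0. Ehhadh is filled in HS_Chol and CA on the other side of 0.

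Ehhadh, the peroxisomal bifunctional enzyme (hydratase and dehydrogenase) of straight and dicarboxylic chains, moved in both directions. The gene lies at chr16:21761287-21787807 on the minus strand. It read 392, 545, 503 and 414 CPM in NC, 319, 236, 327, 280 and 342 CPM in HS, and 736, 939 and 866 CPM in HS_Chol. In CA it read 891, 706, 848 and 708 CPM, and in Chol_CA 256, 109.6, 168 and 168 CPM. HS_Chol and CA were above every NC library, and HS and Chol_CA below every NC library. Against NC, Ehhadh rose in HS_Chol 1.83-fold (log2 0.87 ± 0.21, adjusted p = 0.028) and in CA 1.70-fold (0.77 ± 0.20, adjusted p = 0.0154), and fell in Chol_CA 2.64-fold (-1.40 ± 0.20, adjusted p = 2.76e-05). The difference in HS, -0.62 ± 0.18, did not pass the test (adjusted p = 0.157). Single libraries matter for the rise in HS_Chol, which was not called without NC_0 (adjusted p = 0.107), NC_2 (0.057), NC_3 (0.065), HS_Chol_1 (0.152) or HS_Chol_2 (0.0607). The rise in CA was lost only without NC_0 (0.0626) among 20 alternatives.

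Acaa1a and Acaa1b encode the peroxisomal 3-ketoacyl-CoA thiolases. Acaa1b (chr9:119148023-119157093, minus strand) read 621, 533, 739 and 1256 CPM in NC, 769, 482, 504, 297 and 364 CPM in HS, and 1146, 1191 and 972 CPM in HS_Chol. In CA it read 795, 409, 583 and 519 CPM, which overlaps NC, and in Chol_CA 211, 228, 189 and 201 CPM, below every other library. It fell in Chol_CA by 1.92 ± 0.28 (adjusted p = 3.63e-05) and was not called in the other diets against NC. Acaa1a fell in Chol_CA by 0.68 ± 0.20 (adjusted p = 0.0158), a call that held in 14 of 19 alternatives and was lost without NC_3 (adjusted p = 0.0788), without Chol_CA_2 (0.0584), with upper quartile scaling (0.0661), with only the groups compared (0.0602) and with hepatocyte scaling (0.251). Of the windows of the Acaa1b transcript 35.55% also occur in Acaa1a, so the split of reads between these paralogs is uncertain. Hsd17b4, the bifunctional enzyme for branched chains and bile acid intermediates, read 603, 496, 587 and 459.6 CPM in NC and 310, 210, 334 and 333 CPM in Chol_CA, a fall of 0.85 ± 0.14 (adjusted p = 0.000161). Its HS libraries read 393, 374, 432, 428 and 445 CPM, just below the lowest NC library, with a log2 difference of -0.37 (adjusted p = 0.283). It read 503, 583 and 525 CPM in HS_Chol and 397, 368, 466 and 446 CPM in CA.

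**Figure D3:**
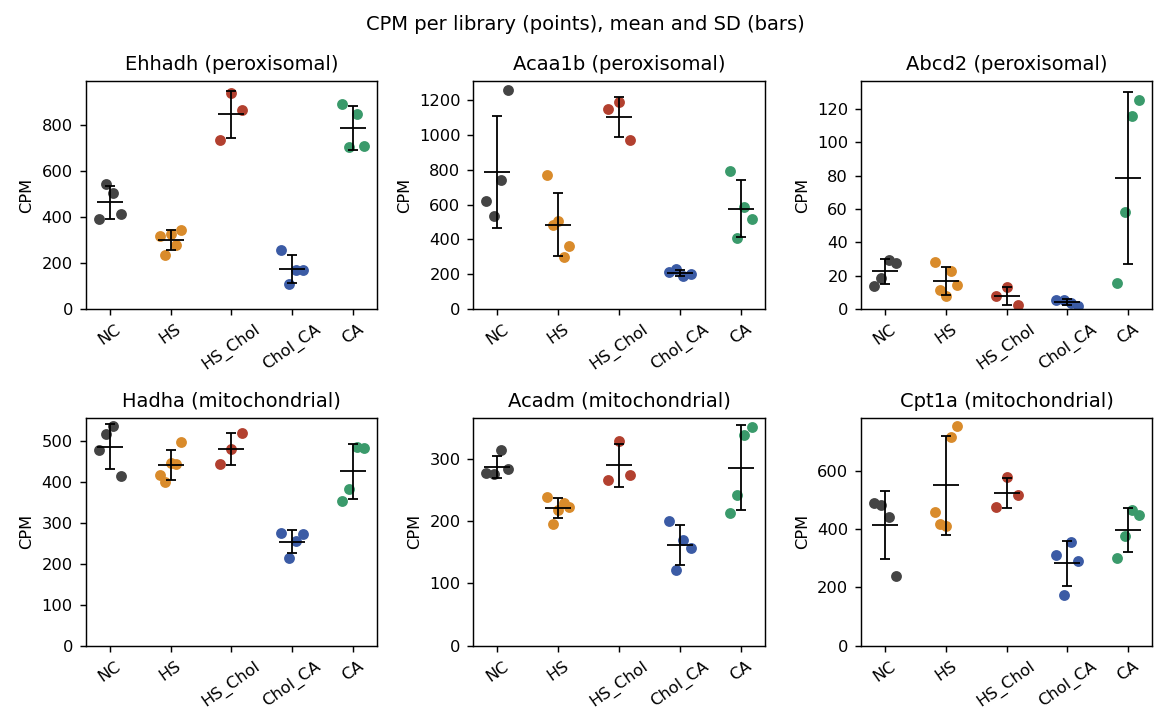
CPM of Ehhadh, Acaa1b, Abcd2, Hadha, Acadm and Cpt1a in each library (points) with the mean and SD of each diet. Ehhadh lies above NC in HS_Chol and CA and below it in HS and Chol_CA, Hadha and Acadm are low in Chol_CA, and Cpt1a in Chol_CA overlaps NC.

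The ABC transporters that carry acyl-CoA into peroxisomes went apart in CA. Abcd2, which prefers very long and polyunsaturated chains, read 14.03, 18.8, 29.2 and 27.8 CPM in NC, 28.0, 11.2, 7.69, 22.6 and 14.2 CPM in HS, and 7.67, 13.3 and 2.63 CPM in HS_Chol. In Chol_CA it read 5.43, 5.50, 3.42 and 1.95 CPM. In CA it read 15.3, 58.2, 115.5 and 125.5 CPM, so CA_0 lay within the NC range and the other 3 above it. Abcd2 rose in CA by 1.81 ± 0.52 (adjusted p = 0.0299) and fell in Chol_CA by 2.47 ± 0.58 (adjusted p = 0.00319). The rise was called in 11 of 20 alternatives and was lost without NC_0, NC_1, NC_2, CA_2 or CA_3 (adjusted p between 0.0523 and 0.123). The HS_Chol libraries were all below NC, but -1.51 ± 0.61 did not pass the test (adjusted p = 0.293). Abcd3, a transporter of long, branched and dicarboxylic chains and of bile acid intermediates, read 712, 653, 757 and 526 CPM in NC, 344, 326, 411 and 389 CPM in CA, and 226, 133, 253 and 257 CPM in Chol_CA. The libraries of these 3 diets did not overlap, with a fall of 0.85 ± 0.18 in CA (adjusted p = 0.00512) and of 1.61 ± 0.19 in Chol_CA (adjusted p = 3.91e-06). In HS it read 518, 500.3, 651, 636 and 728 CPM and in HS_Chol 419, 532 and 505 CPM.

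Crot, the carnitine octanoyltransferase through which shortened chains leave the peroxisome, was the 1 peroxisomal member not called in Chol_CA. It read 604, 757, 763 and 593 CPM in NC and 669, 355, 477 and 458 CPM in Chol_CA, where Chol_CA_0 alone overlapped NC. The log2 difference was -0.47 ± 0.19 (adjusted p = 0.0748), and without Chol_CA_0 the fall was called (adjusted p = 0.00967). In HS it read 436, 391, 415, 528 and 648 CPM, in HS_Chol 516, 612 and 733 CPM, and in CA 682, 718, 842 and 711 CPM. Pex11a, which promotes peroxisome division, read 121, 88.1, 105 and 138 CPM in NC, 121, 72.8, 96.6, 75.8 and 98.7 CPM in HS, and 119.9, 121 and 97.5 CPM in HS_Chol. Its Chol_CA libraries read 44.1, 34.96, 38.8 and 41.9 CPM, and its CA libraries 95.0, 51.1, 68.7 and 74.7 CPM. It fell in Chol_CA 2.83-fold (adjusted p = 9.69e-06) and in CA by 0.64 ± 0.19 (adjusted p = 0.0328), the latter with CA_0 inside the NC range and in 10 of 20 alternatives only. Decr2 and Eci2, the peroxisomal counterparts of Decr1 and Eci1, fell in Chol_CA by 1.15 ± 0.12 (adjusted p = 1.52e-06) and 1.23 ± 0.13 (adjusted p = 1.48e-06), against 1.11 and 1.19 for the mitochondrial pair.

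Among the members outside this division, Ech1, a dienoyl-CoA isomerase found in both organelles, fell in Chol_CA by 1.42 ± 0.17 (adjusted p = 6.6e-06). Acad11, a dehydrogenase of long chains, fell by 0.76 ± 0.24 (adjusted p = 0.0249), but its groups overlapped through NC_3 and the call was lost without NC_0, NC_1, NC_2 or Chol_CA_1 (adjusted p between 0.0609 and 0.081). Pdk4, the kinase that shuts off pyruvate dehydrogenase when fat is burned, was low in counts. It read 12.9, 13.2, 13.5 and 21.9 CPM in NC, 5.69, 3.42, 10.7, 9.66 and 13.3 CPM in HS, and 2.396, 5.29 and 6.24 CPM in HS_Chol. In Chol_CA it read 4.24, 2.06, 3.52 and 5.30 CPM, and in CA 23.6, 17.3, 28.4 and 21.5 CPM. All HS_Chol and Chol_CA libraries were below all NC libraries. Pdk4 fell in HS_Chol 3.30-fold (log2 -1.72 ± 0.40, adjusted p = 0.0214) and in Chol_CA by 2.02 ± 0.36 (adjusted p = 0.000271). The fall in HS_Chol was not called without NC_3 (adjusted p = 0.0509), HS_Chol_0 (0.173) or HS_Chol_1 (0.0637). In CA the log2 difference was 0.57 ± 0.32 (adjusted p = 0.336).

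The background of each comparison differs widely. In HS against NC, 0.214% of the genes tested were called higher and 0.437% lower, and no member was called by edgeR or DESeq2. At an unadjusted p under 0.05 there were 7 members, among 1398 of all 12595 genes. Of the 32 members 27 had a negative log2 fold change, with a median of -0.13 against 0.02 for all genes, and all 10 peroxisomal members were negative, with a median of -0.33. In HS_Chol against NC Ehhadh rose and Pdk4 fell. The members' median was -0.02 against 0.00. In CA against NC Ehhadh and Abcd2 rose, Acsl1, Slc27a2, Acaa2, Abcd3 and Pex11a fell, and the median was -0.19 against 0.01. The count of 5 falls depends on scaling. When library sizes were set by the 12 hepatocyte markers, the median of all genes moved to 0.36, no member was called lower and 5 were called higher, with a members' median of 0.17. Under the same scaling 23 members were still called lower in Chol_CA, with a members' median of -0.59 against 0.35 for all genes. The shares of all genes called under this scaling are not given here. The counts of members under it therefore have only these medians as background.

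Cholesterol was added to both of 2 base diets in this design, to high sucrose and to cholic acid. On high sucrose, 1.60% of all genes tested were called higher and 0.651% lower. Among the members 2 rose and none fell, and the median was 0.11 against 0.01 for all genes. Ehhadh rose 2.82-fold (1.49 ± 0.20 on the log2 scale, adjusted p = 5.66e-05), from 301 ± 42.8 (SD, n = 5) to 847 ± 103 CPM (SD, n = 3), and the call held in all 20 alternatives. Acaa1b rose 2.28-fold (1.19 ± 0.27, adjusted p = 0.0199), with the lowest HS_Chol library at 972 CPM above the highest HS library at 769 CPM. That call held in 11 of 19 alternatives and was lost without HS_1, HS_3, HS_4 or any 1 of the 3 HS_Chol libraries (adjusted p between 0.0502 and 0.123). No mitochondrial member was called by edgeR, and their median was 0.00 with a range from -0.34 to 0.39. At an unadjusted p under 0.05 there were 2 of the 17, beside 1653 of all 12595 genes tested. DESeq2 also called 2 members in all. Of the 10 peroxisomal members 8 had a positive value, with a median of 0.22. HS_Chol is also the diet with the high light-strand tRNA reads, and the part of that in these results was not tested.

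On cholic acid, 13.4% of the genes tested were called higher and 7.80% lower when cholesterol was added, and 26 members fell and none rose. All 32 values were negative, with a median of -0.82 against 0.02. Abcd2 fell 19.4-fold (log2 -4.28 ± 0.60, adjusted p = 8.53e-05), Pdk4 by 2.58 ± 0.36 (adjusted p = 7.77e-05) and Ehhadh 4.49-fold (-2.17 ± 0.20, adjusted p = 1.86e-06). The mitochondrial members had 13 falls of 17 and a median of -0.77, and the peroxisomal members 9 falls of 10 and a median of -0.95. The largest mitochondrial fall was that of Decr1, by 1.39 ± 0.13 (adjusted p = 1.86e-06), followed by Hadhb, by 1.20. Acadl fell by 1.03 ± 0.13 (adjusted p = 3.13e-05), Hadha by 0.75 (adjusted p = 0.000568) and Crot by 0.59 ± 0.19 (adjusted p = 0.0288). The 6 members not called were Slc27a2, Cpt1a, Acaa2, Etfa, Etfb and Acaa1a. Chol_CA is compared with NC and with CA, and both comparisons share its 4 libraries.

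The difference between the cholesterol effects on the 2 base diets was tested as an interaction. Over all genes 2.47% had a higher and 3.53% a lower effect on cholic acid than on high sucrose, and of the members 21 were lower and none higher. The median was -1.04 against 0.06 for all genes. Ehhadh had an interaction of -3.66 ± 0.28 on the log2 scale (adjusted p = 1.15e-07), with a rise on high sucrose and a fall on cholic acid, and Acaa1b had one of -2.66 ± 0.39 (adjusted p = 0.000251), likewise with a rise on the one and a fall on the other. Abcd2 had a value of -3.19 ± 0.81 (adjusted p = 0.0228), with a fall on cholic acid and an uncalled -1.09 ± 0.59 on high sucrose. That interaction was called in 20 of 28 alternatives. Among single libraries, it was lost without HS_Chol_1 (adjusted p = 0.122), CA_2 (0.0544) or CA_3 (0.0531). Of the mitochondrial members 11 of 17 passed, with a median of -0.87, and of the peroxisomal members 8 of 10, with a median of -1.10. Decr1 at -1.39, Acadm at -1.21 and Acadl at -1.01 are mitochondrial examples. Cpt1a at -0.42 (adjusted p = 0.535), Bdh1 at -0.21 (adjusted p = 0.597) and Etfb at 0.09 did not pass. HS_Chol and HS differ in 14 macrophage markers by a median log2 value of 0.94 with none called, and Chol_CA and CA by 2.06 with 10 called higher. The part of this in the interaction was not tested.

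**Figure D4:**
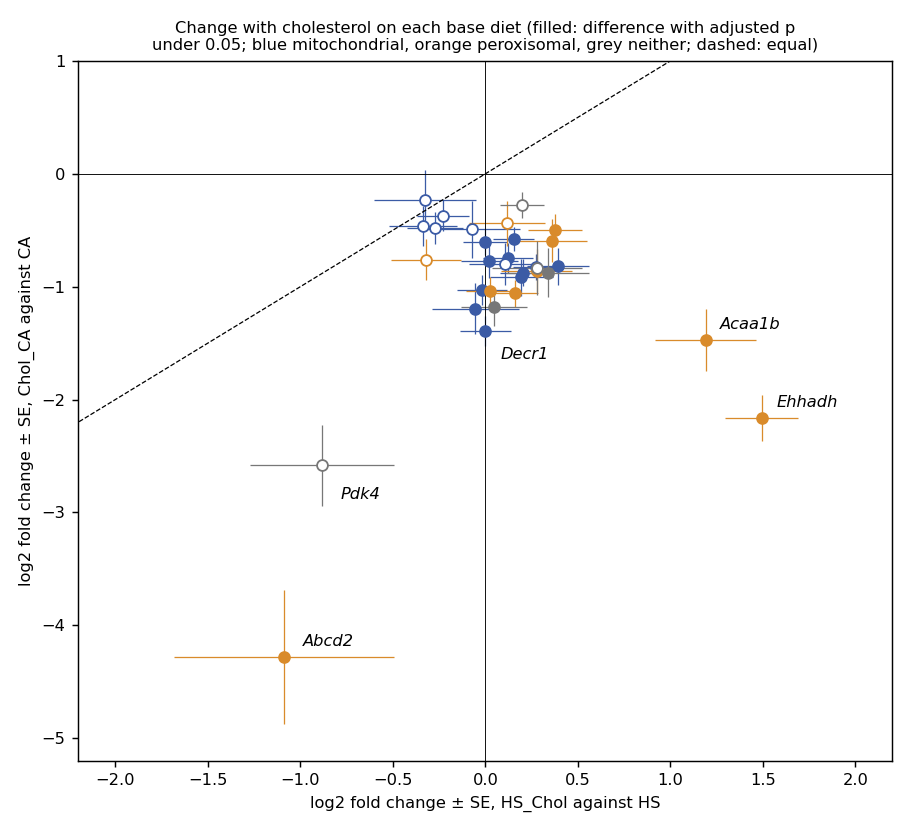
Effect of added cholesterol on each member: log2 fold change on high sucrose (HS_Chol against HS, horizontal) and on cholic acid (Chol_CA against CA, vertical), with standard errors. Filled points are the 21 members whose interaction passed the test, and on the dashed line both effects are equal. Ehhadh and Acaa1b lie at the lower right, with positive values on high sucrose and negative ones on cholic acid.

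The balance of the 2 compartments was read from levels per kilobase of the longest annotated transcript, summed over the members of each class. The 17 mitochondrial members summed to 2108 ± 212 CPM per kilobase in NC (SD, n = 4), 2055 ± 177 in HS (n = 5), 1986 ± 48.5 in HS_Chol (n = 3), 1817 ± 184 in CA (n = 4) and 1184 ± 62.5 in Chol_CA (n = 4). The 10 peroxisomal members summed to 1496 ± 153, 1118 ± 119.7, 1746 ± 109, 1344 ± 149 and 632 ± 90.7 CPM per kilobase in the same order of diets. The mitochondrial sum set Chol_CA (1125 to 1269) apart from all other libraries (1595 and above). The peroxisomal sum separated HS (1003 to 1294) from NC (1367 to 1682) as well, and HS_Chol (1676 to 1871) overlapped NC at its edge.

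As a share of both sums, the peroxisomal members took 41.5% ± 0.81 in NC, with a range of 40.96 to 42.7%. In HS the share was 35.2% ± 1.91 (32.9 to 37.7%), in HS_Chol 46.8% ± 1.02 (45.97 to 47.9%), in CA 42.5% ± 2.41 (40 to 45.8%) and in Chol_CA 34.7% ± 2.91 (30.4 to 36.9%). All HS and all Chol_CA libraries were thus below all NC libraries, all HS_Chol libraries were above them, and CA overlapped NC. The higher share in HS_Chol rested on 2 genes. Without Ehhadh and Acaa1b, an alternative chosen after seeing the data, the other 8 peroxisomal members took 29.4% ± 3.05 of both sums in NC. They took 26.3% ± 2.76 in HS, 28.9% ± 0.86 in HS_Chol, 28.9% ± 0.65 in CA and 27.5% ± 3.25 in Chol_CA. All 4 diets then overlapped NC (24.9 to 31.3%), but through NC_3 alone, whose counts fell with transcript length. Every library of these 4 diets (at most 30.1%, in HS) lay below NC_0 to NC_2. How far the lower shares in HS and Chol_CA rested on these 2 genes therefore depends on NC_3. The sum of the 8 members was 875 ± 63.7 CPM per kilobase in NC, 809 ± 51.7 in HS_Chol and 450.4 ± 76.1 in Chol_CA. The share is a ratio within a library and does not depend on the scaling of the library. Without division by length the order of the diets differed in HS and Chol_CA only, at 45.2, 39.3, 48.8, 46.4 and 39.5% in NC, HS, HS_Chol, CA and Chol_CA. The shares of HS and Chol_CA overlapped at different levels. In HS the mitochondrial sum overlapped NC, and in Chol_CA both sums were lower. Among single genes, the ratio of Ehhadh to Hadha per kilobase was 1.29 ± 0.14 in NC, 0.92 ± 0.10 in HS, 2.38 ± 0.23 in HS_Chol, 2.56 ± 0.60 in CA and 0.92 ± 0.24 in Chol_CA. No test is given for these sums, since the members were chosen with earlier results of these data known.

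**Figure D5:**
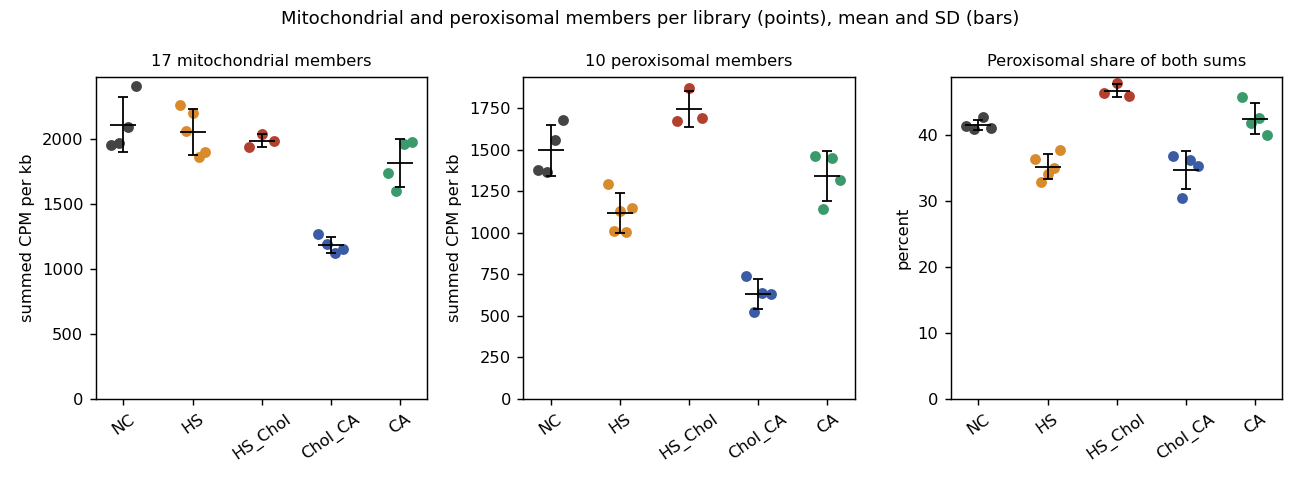
Summed CPM per kilobase of the 17 mitochondrial and of the 10 peroxisomal members, and the peroxisomal share of both sums in percent, for each library (points) with the mean and SD of each diet. The mitochondrial sum is low in Chol_CA, the peroxisomal sum in HS and Chol_CA, and the share is highest in HS_Chol, where Ehhadh and Acaa1b set it above NC.

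Levels within the family spanned a wide range. Per kilobase, the highest members in NC were Acaa2 at 471, Acaa1b at 466 and Slc27a2 at 463 CPM, followed by Acsl1 at 292, Ech1 at 251 and Crot at 227. The lowest were Pdk4 at 4.41, Abcd2 at 4.06 and Hadhb at 1.73 CPM per kilobase. Within diets, the deviations of the members from their diet's mean correlated with a median Pearson r of 0.47 over 136 pairs of mitochondrial members, 0.22 over 45 pairs of peroxisomal members and 0.29 over 170 mixed pairs. These come from 20 libraries that share depth and length trends, and are a description only. In NC_3 against the other NC libraries, the members' deviations correlated with log2 transcript length at r = -0.619, and in HS_0 to HS_2 against HS_3 and HS_4 at r = -0.697, over 32 members.

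Promoter sequences were read for members that moved in different ways, to show what stands upstream of them: Ehhadh and Acaa1b, the peroxisomal pair that rose with cholesterol on high sucrose, Acadm and Hadha, which fell in Chol_CA alone, and Cpt1a, which was not called in the fit over all libraries. Each is the 250 bases before the RefSeq start of the gene in GRCm38.p6, on the gene's own strand. Capitals mark AGGTCA or its reverse complement TGACCT, the half-site of nuclear receptors such as PPARalpha, and CCAAT or its reverse complement ATTGG, the CCAAT box. The windows lie at chr16:21787835-21788084 (minus strand) for Ehhadh, chr9:119157094-119157343 (minus) for Acaa1b, chr3:153944644-153944893 (minus) for Acadm, chr19:3323051-3323300 (plus) for Cpt1a and chr5:30154981-30155230 (minus) for Hadha. RefSeq and GENCODE starts differ, so that the Cpt1a window lies inside the GENCODE gene and most of the Hadha window inside that of Hadha.
Ehhadh: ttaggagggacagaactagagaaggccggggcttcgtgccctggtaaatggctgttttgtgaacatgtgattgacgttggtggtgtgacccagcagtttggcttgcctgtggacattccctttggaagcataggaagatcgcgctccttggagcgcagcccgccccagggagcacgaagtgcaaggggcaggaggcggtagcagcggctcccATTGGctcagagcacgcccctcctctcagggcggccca
Acaa1b: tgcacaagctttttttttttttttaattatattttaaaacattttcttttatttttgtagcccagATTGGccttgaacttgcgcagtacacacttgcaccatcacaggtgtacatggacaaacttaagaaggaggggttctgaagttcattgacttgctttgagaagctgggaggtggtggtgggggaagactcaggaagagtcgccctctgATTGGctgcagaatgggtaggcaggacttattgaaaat
Acadm: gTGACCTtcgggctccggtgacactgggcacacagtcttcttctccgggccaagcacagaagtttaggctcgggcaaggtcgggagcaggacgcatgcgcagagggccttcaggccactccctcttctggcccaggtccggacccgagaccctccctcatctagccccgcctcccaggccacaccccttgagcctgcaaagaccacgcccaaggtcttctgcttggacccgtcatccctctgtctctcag
Cpt1a: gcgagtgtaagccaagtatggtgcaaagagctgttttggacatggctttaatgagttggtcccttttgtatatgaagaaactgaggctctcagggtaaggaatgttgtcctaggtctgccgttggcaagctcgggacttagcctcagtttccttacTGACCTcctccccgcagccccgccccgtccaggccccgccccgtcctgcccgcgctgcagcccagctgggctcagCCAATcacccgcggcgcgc
Hadha: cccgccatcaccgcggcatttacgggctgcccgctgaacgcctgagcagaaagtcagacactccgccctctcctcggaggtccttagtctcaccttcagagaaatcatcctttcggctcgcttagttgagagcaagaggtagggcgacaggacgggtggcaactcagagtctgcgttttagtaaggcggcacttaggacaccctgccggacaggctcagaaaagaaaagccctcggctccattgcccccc

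A CCAAT box begins 38 bases upstream of the start in Ehhadh, and in Acaa1b 1 lies at 185 and 1 at 38 bases. Cpt1a has a half-site at 94 and a CCAAT box at 19 bases, Acadm a half-site at 249 bases, and Hadha holds neither motif. RefSeq entries were found for 28 of the 32 members, with 31 windows. On either strand AGGTCA occurs in 4 of these 28 genes (Acadm, Acadvl, Cpt1a and Slc27a2). Counted by window, it occurs in 12.9% of the members' 31 windows and in 14% of all 32851 windows. The repeat of AGGTCA, any base and AGGTCA again, to which PPARalpha binds with RXR, occurs in none of the members and in 0.0335% of all windows, and a shorter form, AGGTCA, any base and AGG, in Slc27a2 and in 0.56% of all windows. CCAAT occurs in 13 of the 28 genes, and by window in 41.9% of the members' windows and in 33.8% of all windows. AGGTCA is part of both repeats, so these matches overlap. The starts of Hadha and Hadhb are 273 bases apart, so their windows share sequence.

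Beside the members, 8 further lists of related genes were read. In Chol_CA against NC, 53.6% of their 110 tested genes were called lower and 0.909% higher, where the shares over all genes were 9.35% and 15.0%. Of these, 7 of 11 tested genes of mitochondrial oxidation fell and none rose, with a median log2 fold change of -0.63, led by Acacb, the acetyl-CoA carboxylase that makes the malonyl-CoA which inhibits Cpt1a (a fall of 2.80 ± 0.42, adjusted p = 4.41e-05), and Crat, the carnitine acetyltransferase (1.48 ± 0.22, adjusted p = 5.01e-05). Echs1, the short-chain hydratase, fell by 0.58 ± 0.13 (adjusted p = 0.00237). Of the 18 genes listed under peroxisomal oxidation 8 fell and 10 were not called, with a median of -0.52. That list and its count include Acsl5, an acyl-CoA synthetase that is not a peroxisomal enzyme, which fell by 1.59 ± 0.16 (adjusted p = 1.03e-06). Peroxisome assembly factors had 7 falls of 15 and a median of -0.34. Pex5, the receptor for matrix protein import, fell by 0.61 ± 0.11 (adjusted p = 0.00026), and Pex14, its docking partner, by 0.52 ± 0.10 (adjusted p = 0.000716). Of the 16 citric acid cycle genes 11 fell, among them Dlst by 0.62 ± 0.11 (adjusted p = 0.000198) and Sdhd by 0.69 ± 0.13 (adjusted p = 0.000364), with a median of -0.49. Mitochondrial import and upkeep had 6 falls of 14 and a median of -0.28, with Lonp1, a matrix protease, at -0.54 ± 0.13 (adjusted p = 0.00368) and Hspa9, the matrix Hsp70, at -0.78 ± 0.20 (adjusted p = 0.00643). No gene of these 5 lists was called higher in that comparison.

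PPARalpha targets outside beta-oxidation showed wide swings. In Chol_CA 12 of 14 fell, with a median of -2.01. Cyp4a10, an omega-hydroxylase of fatty acids, fell by 5.63 ± 0.54 (adjusted p = 5.81e-07), from 202 ± 76.3 to 4.16 ± 2.94 CPM (SD, n = 4 and 4). Cyp4a14, a related hydroxylase, read 169, 979, 863 and 548 CPM in NC, 109, 8.63, 19.4, 22.2 and 70.0 CPM in HS, and 549.7, 943 and 323 CPM in HS_Chol. In CA it read 763, 684, 1377 and 809 CPM, and in Chol_CA 4.77, 1.83, 1.56 and 1.41 CPM, where its reads numbered 81 in all. Every HS and every Chol_CA library was below every NC library. Cyp4a14 fell in HS by 3.80 ± 0.61 (adjusted p = 0.00303), the only gene of the 8 lists called in that comparison, and in Chol_CA (adjusted p = 1.49e-06). In HS_Chol against HS 5 of the 14 rose, led by Aldh3a2, a fatty aldehyde dehydrogenase (1.33 ± 0.22, adjusted p = 0.000745), and Cyp4a14 (3.72 ± 0.63, adjusted p = 0.000968). In CA against NC 4 of 14 rose and none fell, led by Cd36, a fatty acid uptake receptor (1.95 ± 0.39, adjusted p = 0.00302), and Acot3, an acyl-CoA thioesterase (2.82 ± 0.72, adjusted p = 0.0154).

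The transcript of the receptor itself did not pass the test. Ppara read 136, 124, 117 and 27.6 CPM in NC, 46.1, 54.7, 45.3, 134 and 176 CPM in HS, and 102, 121 and 104 CPM in HS_Chol. The Chol_CA libraries read 31.8, 7.79, 73.7 and 70.0 CPM and the CA libraries 23.5, 62.9, 71.8 and 62.3 CPM. The low libraries in NC, HS, Chol_CA and CA are among those whose counts fell with transcript length. The log2 fold change was -1.14 ± 0.58 in Chol_CA (adjusted p = 0.172) and -0.88 ± 0.57 in CA (adjusted p = 0.42). Ppargc1a, a coactivator of mitochondrial genes, was not called in Chol_CA either (-0.41 ± 0.31, adjusted p = 0.389). Of 15 regulators 5 fell in Chol_CA and none rose. Lpin1, a phosphatidate phosphatase and coactivator of PPARalpha, fell by 1.55 ± 0.32 (adjusted p = 0.00125), and Pparg, a related receptor of fat storage, by 2.22 ± 0.48 (adjusted p = 0.00168).

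Of the outside genes followed in every comparison, Cyp4a14 fell in HS by 3.80 ± 0.61 and rose when cholesterol was added to high sucrose, as given above. Echs1, Ppara and Ppargc1a were not called on the sucrose diets. In HS against NC the log2 fold change was 0.04 ± 0.12 for Echs1, -0.15 ± 0.54 for Ppara and -0.10 ± 0.30 for Ppargc1a. In HS_Chol against NC, Echs1 (-0.09), Ppara (0.11), Ppargc1a (-0.57) and Cyp4a14 (-0.08) were not called. In HS_Chol against HS, neither were Echs1 (-0.13), Ppara (0.25) and Ppargc1a (-0.47). On cholic acid against NC, Echs1 (0.18), Ppargc1a (0.15) and Cyp4a14 (0.51) were not called.

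In CA against NC the same lists had 5.45% of 110 genes called higher and 8.18% lower, beside 5.22% and 4.61% of all genes. Acad12, an acyl-CoA dehydrogenase family member, rose by 1.75 ± 0.31 (adjusted p = 0.000961), and Acacb fell by 1.29 ± 0.39 (adjusted p = 0.0421), in a list with a median of 0.04. Of 18 peroxisomal oxidation genes 1 rose and 3 fell. Phyh, which starts alpha-oxidation of phytanic acid, fell by 0.76 ± 0.12 (adjusted p = 0.000307), and Scp2, the sterol carrier and thiolase of bile acid synthesis, by 0.99 ± 0.19 (adjusted p = 0.00248). Single falls were called among the 7 ketone body genes, in assembly (Pex5, 0.38 ± 0.11, adjusted p = 0.0267) and among the regulators (Lpin1, 1.42 ± 0.32, adjusted p = 0.00734). The citric acid cycle had 2 (Fh1, 0.51 ± 0.14, adjusted p = 0.0243, and Cs, 0.36 ± 0.11, adjusted p = 0.0451). In HS_Chol against HS, Acox2, the oxidase of bile acid intermediates, rose by 0.75 ± 0.13 (adjusted p = 0.00185), while Sdhd fell by 0.58 ± 0.13 (adjusted p = 0.0203) and Cs by 0.45 ± 0.12 (adjusted p = 0.0465). No gene of the 8 lists was called by edgeR in HS_Chol against NC. Each list had between 0 and 5 genes there at an unadjusted p under 0.05, beside 1467 of all 12595 genes tested.

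When cholesterol was added to cholic acid, 50% of the 110 tested genes of these lists were called lower and 2.73% higher. Over all genes tested the shares were 7.80% and 13.4%. Falls were called in every list. They numbered 7 of 11 in mitochondrial oxidation, 5 of 7 among ketone body genes, 9 of 18 in peroxisomal oxidation, 4 of 15 in assembly, 2 of 15 regulators, 13 of 14 PPARalpha targets, 9 of 16 in the citric acid cycle and 6 of 14 in import and upkeep. Oxct1 rose by 2.06 ± 0.30 (adjusted p = 0.000111), and 2 peroxisomal oxidation genes, Acox3 (0.46) and Nudt7 (1.27), rose. Among the smallest adjusted p of their lists were those of Crat (-1.80 ± 0.22, adjusted p = 2.4e-05) and Echs1 (-0.76 ± 0.13, adjusted p = 0.000492), and of Hacl1, which cleaves alpha-hydroxy chains (-1.83 ± 0.23, adjusted p = 2.29e-05), and Acot4, a peroxisomal thioesterase (-1.96 ± 0.27, adjusted p = 7.65e-05). In assembly they were those of Pex19 (-0.77 ± 0.12, adjusted p = 0.000156) and Pex14 (-0.47 ± 0.10, adjusted p = 0.00272). Pparg (-2.27 ± 0.48, adjusted p = 0.00215), Creb3l3 (-0.50 ± 0.12, adjusted p = 0.0048), Cyp4a10 (-5.63 ± 0.54, adjusted p = 1.86e-06), Cyp4a14 (adjusted p = 3.02e-06), Suclg2 (-0.91 ± 0.15, adjusted p = 0.000272), Idh3b (-0.71 ± 0.13, adjusted p = 0.000604), Hspd1 (-0.95 ± 0.19, adjusted p = 0.00137) and Lonp1 (-0.59 ± 0.13, adjusted p = 0.00282) were likewise among the smallest in theirs. Ppara (-0.26 ± 0.57, adjusted p = 0.805) and Ppargc1a (-0.56 ± 0.31, adjusted p = 0.233) were not called.

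In the interaction, 26.4% of the 110 genes were called lower and 1.82% higher, beside 3.53% and 2.47% of all genes tested. The interaction was called lower for Acot4 (-2.41 ± 0.38, adjusted p = 0.000516) among 6 of 18 peroxisomal oxidation genes, while 1 of the 18, Nudt7, was called higher at 2.04. It was also called lower for Crat (-2.28 ± 0.31, adjusted p = 0.000116) and Acot2, a mitochondrial thioesterase (-3.34 ± 0.60, adjusted p = 0.00172), among 5 of 11 genes of mitochondrial oxidation. Of the 14 PPARalpha targets 8 were lower, with Cyp4a10 at -8.00 ± 0.68 (adjusted p = 3.97e-07) and Cyp4a14 (adjusted p = 4.55e-07) first. Ketone body genes had 3 lower, among them Acat1 (-1.10 ± 0.21, adjusted p = 0.00296), and 1 higher, Oxct1 at 1.81. The remaining lists had 2 lower in assembly (Pex19, -0.66 ± 0.16, adjusted p = 0.0198, and Pex14, -0.52 ± 0.15, adjusted p = 0.0389), 1 regulator (Pparg, -3.43 ± 0.67, adjusted p = 0.00316), 2 in the citric acid cycle (among them Suclg2, -1.02 ± 0.21, adjusted p = 0.00498) and 2 in import and upkeep (Lonp1, -0.88 ± 0.19, adjusted p = 0.00632, and Hspd1, -1.18 ± 0.27, adjusted p = 0.0111). Echs1 missed the threshold at -0.63 ± 0.19 (adjusted p = 0.0516), and Ppara (-0.52 ± 0.82, adjusted p = 0.748) and Ppargc1a (-0.09 ± 0.46, adjusted p = 0.931) were not called.

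Markers of other cell types differed between the diets too. In Chol_CA all 14 macrophage markers, 6 of 6 tested lymphocyte markers, 3 of 3 tested neutrophil markers and 5 of 10 stellate cell and fibroblast markers rose, and 3 of 12 hepatocyte markers fell (Alb by 1.16 on the log2 scale, Ttr by 0.79 and Tat by 0.98). In the same diet 3 of 8 sinusoidal endothelial and 2 of 6 cholangiocyte markers rose. The median of the 12 hepatocyte markers was -0.32, against -0.94 for the members. In CA 9 of 14 macrophage markers rose and 2 of 12 hepatocyte markers fell (Serpina1a by 0.70 and Tat by 1.51), and in HS_Chol 4 macrophage markers rose and no hepatocyte marker was called. In HS neither list had a call. The part of these cells in the members' values was not tested. The scaling to hepatocyte markers moves all genes of a library alike. Cpt1a and Ehhadh were also compared with 9181 tested genes of at least 5 CPM on average. Members, genes of the further lists and cell type markers were left out of these 9181. Among them, the genes most like Cpt1a in log2 CPM over the 20 libraries were Fads2 (Pearson r = 0.92), Azin1 (0.90) and Bach2 (0.90). For Ehhadh they were 2610019F03Rik (0.90), Josd1 (0.87) and Retsat (0.86), the last with mean CPM of 485 in NC, 279 in HS, 615 in HS_Chol, 392 in CA and 85.7 in Chol_CA.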

How the data were processed

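Raw read counts per gene symbol were deposited by the authors as 1 table. Per the submitters' processing notes, reads were handled with STAR 2.6.1c on mm10, and per the labels' protocols the libraries were strand-specific, single-end and 50 bp long. Which strand was counted is not given in the sources used here, and 11 members overlap a gene on the other strand. The 20 columns used match a diet, but not 1 labelled sample, and 3 further columns were not used. The test was edgeR 4.0.16's, run in R 4.3.3 on these counts (TMM, filterByExpr, robust quasi-likelihood, 1 mean per diet over all libraries, common biological coefficient of variation 0.235), with Benjamini-Hochberg adjustment over 12595 genes. Total counts per library ran from 6110484 to 10244277, and 12697 rows held no read. Every diet was compared with NC, cholesterol was compared within each base diet, and the difference between both cholesterol effects was tested. The scripts were tested on simulated counts.

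CPM used effective library sizes, and lengths and coordinates (1-based) came from GENCODE M21 (GRCm38), in which 29015 symbols were found by name, 1876 by an older name and 3545 not at all. Promoters came from RefSeq. The members and lists were chosen with earlier results of these data known. Every member is named. Values in every library are given for 13 members, and for the 3 called members with the largest change in each comparison. Outside the members, the rule names Echs1, Ppara, Ppargc1a and Cyp4a14 in each comparison and, from each other list, the 2 called genes with the smallest adjusted p. Some genes these rules name are not reported here. Further genes were chosen after their values were seen. Likeness was Pearson's r of log2(CPM + 0.1), over tested genes outside the members, the other lists and the markers. Alternatives were DESeq2 1.42.0, other scalings, filters, a replicate block, each library left out, fits by length trend, and genes without overlap. Scaling to hepatocyte markers, leaving out NC_3, Chol_CA_0 and Chol_CA_1 together, and the peroxisomal share without Ehhadh and Acaa1b were chosen after seeing the data. A sign that replicate numbers pair libraries across diets was not found (mean r 0.004 over 36 pairs of the same number, 0.003 over 123 others). No pair of libraries within a diet agreed within sampling noise (chi-square per degree of freedom at least 4.86).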

Additional observations from a re-analysis of the deposited data

Results flagged for a closer look

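In each member and each diet with 4 or 5 libraries, the highest and lowest library were compared with the rest by Dixon's gap ratio. An outlying library was found in 9 of 128 cases, where chance gives about 1 in 20. NC_3 held 5 of these: Etfa at 196, Etfb at 295, Acaa1a at 157 and Pdk4 at 21.9 CPM were high, and Acad11 at 257 CPM was low. In Chol_CA, Cpt2 at 77.7 and Etfdh at 92.0 CPM were low in Chol_CA_1, Acadl at 149 CPM was high in Chol_CA_0, and Acaa2 at 359 CPM was low in Chol_CA_2. NC_3, Chol_CA_0 and Chol_CA_1 are libraries whose counts fell with transcript length, and the part of that in these values was not tested.

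The effect of cholesterol differed between the base diets, by edgeR's interaction test, for 21 members, and each had a lower value on cholic acid. Peroxisomal members had interactions on the log2 scale of -3.66 (Ehhadh), -3.19 (Abcd2), -2.66 (Acaa1b), -1.22 (Decr2), -1.14 (Pex11a), -1.07 (Eci2), -0.95 (Crot) and -0.87 (Hsd17b4). The mitochondrial values were -1.39 for Decr1, -1.21 for Acadm, -1.14 for Hadhb, -1.11 for Eci1, -1.10 for Cpt2, -1.08 for Slc25a20, -1.01 for Acadl, -0.87 for Hadha, -0.79 for Hadh, -0.73 for Acads and -0.60 for Acadvl. Ech1 had a value of -1.22 and Acsl1 of -1.21.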

How the results depend on the processing

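With DESeq2, none of the 87 calls on members was lost and 7 were gained, and with RLE size factors none was lost and 1 gained. Counts of members called that moved by over 1.5 times were as follows. The shares of all genes called under each setting are not given here, so these counts have no background beside them. HS against NC had 1 higher and 2 lower in libraries with a positive length trend, 1 lower with a term for the trend, and 2 lower without NC_3, Chol_CA_0 and Chol_CA_1. HS_Chol against NC (1 higher, 1 lower) had 0 higher with the replicate block, 2 and 2 in libraries with a positive trend, 2 higher with hepatocyte scaling, 2 lower without the 3 libraries, and 0 to 1 of each with 1 library left out. CA against NC (2 higher, 5 lower) had 3 lower with upper quartile scaling, 1 higher with no filter, 1 higher and 3 lower with only the groups compared, 1 higher with the replicate block, 4 higher with a positive trend, 3 lower without genes that overlap on the opposite strand, 5 higher and 0 lower with hepatocyte scaling, 1 higher without the 3 libraries, and 0 to 2 higher and 2 to 4 lower with 1 library left out. HS_Chol against HS (2 higher) had 1 with upper quartile scaling, with the replicate block and without overlapping genes, 5 with hepatocyte scaling and 1 to 2 with 1 library left out. Without overlapping genes 21 members were tested, and 19 of the 29 falls in Chol_CA against NC and 17 of the 26 against CA remained to be counted, since the others were not tested. Acsl1 and Slc27a2, called in CA against NC, and Acaa1b, called in HS_Chol against HS, were likewise not tested there. Among the members still tested, no call was lost or gained in that setting. One value reversed, the interaction of Etfb, at -0.71 (adjusted p = 0.0101, edgeR) in libraries with a positive trend, and its cause was not tested. With 1 library left out, Chol_CA against NC kept 28 to 30 falls, Chol_CA against CA 22 to 27 and the interaction 16 to 23. Replicate numbers share only a number, since 2 of 20 libraries correlated best with their own, and the block lost 6 calls and gained 2. Of interaction calls, Acadvl was called in 14 of 27, Crot in 14 of 27 and Hadhb in 16 of 28 alternatives. Hadh was called in 19 of 28, Abcd2 in 20 of 28 and Acsl1 in 24 of 27.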

Other observations

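Hadha and Hadhb form one complex and have neighbouring starts, 273 bases apart, yet their levels in NC were 120.9 and 1.73 CPM per kilobase. Only 4.42% of the 50-base windows in the longest Hadhb transcript occur in another gene model. The gap was wide in the other diets too (109.6 and 1.63 in HS, 119.4 and 1.57 in HS_Chol, 105.9 and 2.11 in CA, 63.2 and 0.92 in Chol_CA). How the deposited count of Hadhb was assembled is not given in the sources used here, and the cause was not tested.

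The catalase gene Cat, a peroxisomal enzyme that removes hydrogen peroxide, fell in Chol_CA from 4762 ± 264 to 2546 ± 603 CPM (SD, n = 4 and 4; log2 -0.90, adjusted p = 0.000134, edgeR). Its mean was 3653 ± 255 CPM in HS (n = 5), 4325 ± 334 in HS_Chol (n = 3) and 3799 ± 363 in CA (n = 4). Nudt7, a peroxisomal hydrolase of coenzyme A, fell in CA by 2.08 on the log2 scale, from 586 ± 32.2 to 139 ± 130 CPM, and rose by 1.27 when cholesterol was added to cholic acid. Its interaction was 2.04, where 31 of the 32 members had a negative value. These genes were chosen after their values were seen.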
